A study of Mus musculus with 9 samples.

Results

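The genes described here are the developmental transcription factors of the Hox, T-box, Sox, Forkhead (Fox) and Gata families, together with Nkx2-1. They were chosen by symbol alone, as every gene named Hoxa, Hoxb, Hoxc or Hoxd, Tbx, Sox or Foxa to Foxs followed by its number, Gata1 to Gata6, and Nkx2-1. Tbx21, Foxp3, Foxm1 and Foxj1, which mark lymphocytes, dividing cells or ciliated cells, were left out. The choice gave 105 of the 32671 genes in the table: 37 Fox, 32 Hox, 18 Sox, 11 T-box and 6 Gata genes, and Nkx2-1. Of the Hox genes 10 belong to the Hoxa cluster, 10 to Hoxb, 6 to Hoxc and 6 to Hoxd. Every one of the 105 had at least 1 count somewhere, 17 had fewer than 10 counts in every library, 78 had enough counts to be tested and 27 did not.

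Messenger RNA of whole lung from wild-type C57BL/6 mice was sequenced at day 21 in 3 groups of 3 libraries. The group called LNP here was challenged with bleomycin and then given inhaled lipid nanoparticles labelled mCas9/gSting@DOPS LNP, where Cas9 stands for the guide-directed nuclease. The bleomycin group was challenged with bleomycin, a DNA-damaging drug that scars the lung, and the control group received saline. Particles without the guide are not analysed here, so the guide and its carrier cannot be told apart. The labels do not say that the 3 libraries of a group are separate mice, and each p-value reflects the spread among libraries alone.

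These factors bind DNA through a domain shared within each family and set which genes a cell lineage can use. Hox genes lie in 4 clusters in which the order along the chromosome follows the order of expression along the body, and lung lies within the range of the anterior and middle genes. In lung, Nkx2-1 and Foxa1 and Foxa2 are needed for epithelial fate, Sox2 for the conducting airway, Foxf1, Tbx2 to Tbx5 and Hoxa5 for the mesenchyme around it, and Sox7, Sox17 and Sox18 for endothelium.

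Each library held between 56047830 and 69404903 gene counts. LNP replicate 3 stood apart from every other library. Its 8 skeletal muscle markers summed to 6300 CPM (a gene's counts relative to the library total, with totals scaled by TMM), and those of no other library to more than 51.5 CPM. Its 8 squamous epithelium markers summed to 1820 CPM, against at most 24.7 CPM elsewhere. The lung markers were present in all libraries, but the 9 alveolar type 2 markers summed to 7880 CPM in LNP replicate 3, against 23100 and 19200 CPM in LNP replicates 1 and 2, 9020 to 10700 CPM in bleomycin libraries and 24500 to 33000 CPM in control libraries. No marker on any of these lists was at 0 in every library. Sting1, named as the guide's target, had 51.8, 62.0 and 44.3 CPM in LNP libraries, 53.8, 41.5 and 40.5 CPM in bleomycin libraries and 18.4, 23.9 and 20.9 CPM in control libraries, so its message was not lower in LNP libraries, and message counts do not show whether DNA was cut. Results that involve the LNP group are given with and without that library.

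The promoters of 4 members whose messages lay lower in bleomycin than in control lungs are shown first, as examples from different families. They were picked from 28 lower members, and whether they share any control was not tested. Each line gives the 250 bases before the transcription start in RefSeq's GRCm38.p6 annotation, written 5′ to 3′ on the strand of the gene. Sox2 lies at chr3:34649745-34649994 on the plus strand, Nkx2-1 at chr12:56536909-56537158 on the minus strand and Foxa1 at chr12:57546112-57546361 on the minus strand. Gata2 has 2 starts in that annotation, at chr6:88193641-88193890 and chr6:88198414-88198663 on the plus strand. Capitals mark matches, on either strand, to the 8 motifs whose letters are given with their frequencies after the sequences.
Sox2: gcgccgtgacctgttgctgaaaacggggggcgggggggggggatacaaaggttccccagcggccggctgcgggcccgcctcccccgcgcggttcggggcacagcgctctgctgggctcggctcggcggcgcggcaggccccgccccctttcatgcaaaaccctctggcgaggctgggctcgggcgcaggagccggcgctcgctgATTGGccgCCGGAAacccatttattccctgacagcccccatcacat
Nkx2-1: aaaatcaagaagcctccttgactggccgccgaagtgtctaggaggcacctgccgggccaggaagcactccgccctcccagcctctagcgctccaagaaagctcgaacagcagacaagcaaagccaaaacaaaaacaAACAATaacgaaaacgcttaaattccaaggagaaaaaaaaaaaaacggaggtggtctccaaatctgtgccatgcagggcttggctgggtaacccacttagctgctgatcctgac
Foxa1: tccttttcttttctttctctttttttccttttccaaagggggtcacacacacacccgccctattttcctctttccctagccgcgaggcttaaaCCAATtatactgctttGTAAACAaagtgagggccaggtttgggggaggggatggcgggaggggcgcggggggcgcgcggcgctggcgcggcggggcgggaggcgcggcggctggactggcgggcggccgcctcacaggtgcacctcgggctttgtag
Gata2 start 1: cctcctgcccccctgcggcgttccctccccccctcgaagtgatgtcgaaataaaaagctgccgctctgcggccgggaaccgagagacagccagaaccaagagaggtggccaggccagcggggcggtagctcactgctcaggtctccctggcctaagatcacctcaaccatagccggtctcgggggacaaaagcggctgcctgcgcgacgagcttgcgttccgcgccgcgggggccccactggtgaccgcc
Gata2 start 2: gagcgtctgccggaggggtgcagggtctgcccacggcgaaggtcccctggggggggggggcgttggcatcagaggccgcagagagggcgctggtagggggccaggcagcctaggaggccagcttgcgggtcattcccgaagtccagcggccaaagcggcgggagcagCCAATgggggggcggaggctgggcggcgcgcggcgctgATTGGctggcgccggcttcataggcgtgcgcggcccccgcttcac

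The Sox2 window held a CCAAT box read on the opposite strand 46 bases before the start and an ETS match 38 bases before it. The Nkx2-1 window held a Sox match 114 bases before the start. The Foxa1 window held a Fox match on the opposite strand 141 bases before the start and a CCAAT box 157 bases before it. The first Gata2 window held none of the 8 motifs, and the second held CCAAT boxes in both orientations, 83 and 45 bases before the start. A promoter window was found for 65 of the 105 members, with 77 windows in all. The CCAAT box, searched as CCAAT, was in 44.2% of these windows, against 33.8% of the 32851 windows of all genes. The Fox motif, searched as TGTTTAC, was in 2.6% of the members' windows and 3.17% of all windows. The Sox motif, searched as AACAAT, was in 5.19% of the members' windows and 9.42% of all windows. The Gata motif AGATAA was found in 3.9% and 9.99% of these sets, the Hox motif TAATTA in 5.19% and 4.84%, and the T-box motif AGGTGTGA in 1.3% and 1.12%. The ETS motif CCGGAA was found in 7.79% of the members' windows and 12.0% of all windows, and the TATA box, searched as TATAAA, in 11.7% and 12.4%. No motif contains the letters of another, and a match is a description of the letters only. The Nkx2-1 start coincided with the 5′ end of transcript ENSMUST00000001536 and the first Gata2 start with that of ENSMUST00000170089 in the GENCODE annotation. The other starts lay apart from the nearest 5′ end of a transcript that held most of the gene's deposited counts, by 10 bases for Foxa1, 410 bases for Sox2 and 330 bases for the second Gata2 start. The Nkx2-1 transcript took 45.6%, 43.7% and 55.5% of the gene's deposited transcript counts in LNP libraries, 53.4%, 42.4% and 35.9% in bleomycin libraries and 58.6%, 56.8% and 58.1% in control libraries. The control libraries lay above all others in that share. The Gata2 transcript took 33.9% to 45.4% in LNP, 32.3% to 38.6% in bleomycin and 36.6% to 39.6% in control libraries, and the 3 groups overlapped.

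To set out which members the lung uses, levels were compared between genes as FPKM, fragments per kilobase of transcript scaled to library depth, which corrects for transcript length. In control lungs 18 members averaged at least 10 FPKM, 47 at least 1 FPKM and 73 at least 0.1 FPKM. Sox18, an endothelial factor, stood at the top with a mean of 157 ± 14.3 FPKM (SD, n = 3). Foxf1, a factor of mesenchyme and capillary endothelium, averaged 93.2 ± 3.22 FPKM and Tbx2, a mesenchymal repressor, 87.6 ± 5.39 FPKM. These neighbours did not differ beyond their spread, whereas Nkx2-1, the master factor of lung epithelium, lay below both at 63.6 ± 5.15 FPKM. Gata2, a factor of endothelium, mast cells and blood progenitors, averaged 37.8 ± 1.03 FPKM and Sox13 averaged 33.7 ± 0.707 FPKM. Sox7 at 29.0 ± 0.904 FPKM, Hoxa5 at 28.0 ± 3.50 FPKM and Tbx4 at 24.8 ± 2.61 FPKM followed, and the SDs of Hoxa5 overlapped those of both neighbours. In LNP lungs Nkx2-1 ranked 2 by its mean of 56.6 FPKM, in bleomycin lungs it ranked 3 at 35.8 FPKM after Foxf1 at 58.0 FPKM and Tbx2 at 57.2 FPKM. Sox18 averaged 85.2 FPKM in LNP lungs and 29.6 FPKM in bleomycin lungs.

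The Hox genes of the lung came from the anterior and middle parts of the Hoxa and Hoxb clusters. Hoxa5, needed for lung and tracheal patterning, was the highest Hox gene in each group, with mean levels of 17.7 FPKM in LNP, 20.4 FPKM in bleomycin and 28.0 FPKM in control lungs. Hoxb5, which acts in airway branching, averaged 3.54 FPKM in LNP, 3.37 FPKM in bleomycin and 8.57 FPKM in control lungs. Hoxb2 at 4.83 FPKM, Hoxa7 at 4.01 FPKM, Hoxa4 at 3.80 FPKM and Hoxb6 at 3.73 FPKM followed in control lungs. Paralogues 9 to 13 of the Hoxa, Hoxb and Hoxc clusters lay below 0.1 FPKM in every library, and of the Hoxc and Hoxd genes Hoxd8 and Hoxd9 alone passed 0.4 FPKM in any library. Hoxa3 overlaps 9 other annotated genes and 45 of the 105 members overlap at least 1, 33 of them on the opposite strand and 22 on the same strand. The sources used here do not state whether counting was strand-aware, which leaves values of overlapping genes uncertain.

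**Figure D1:**
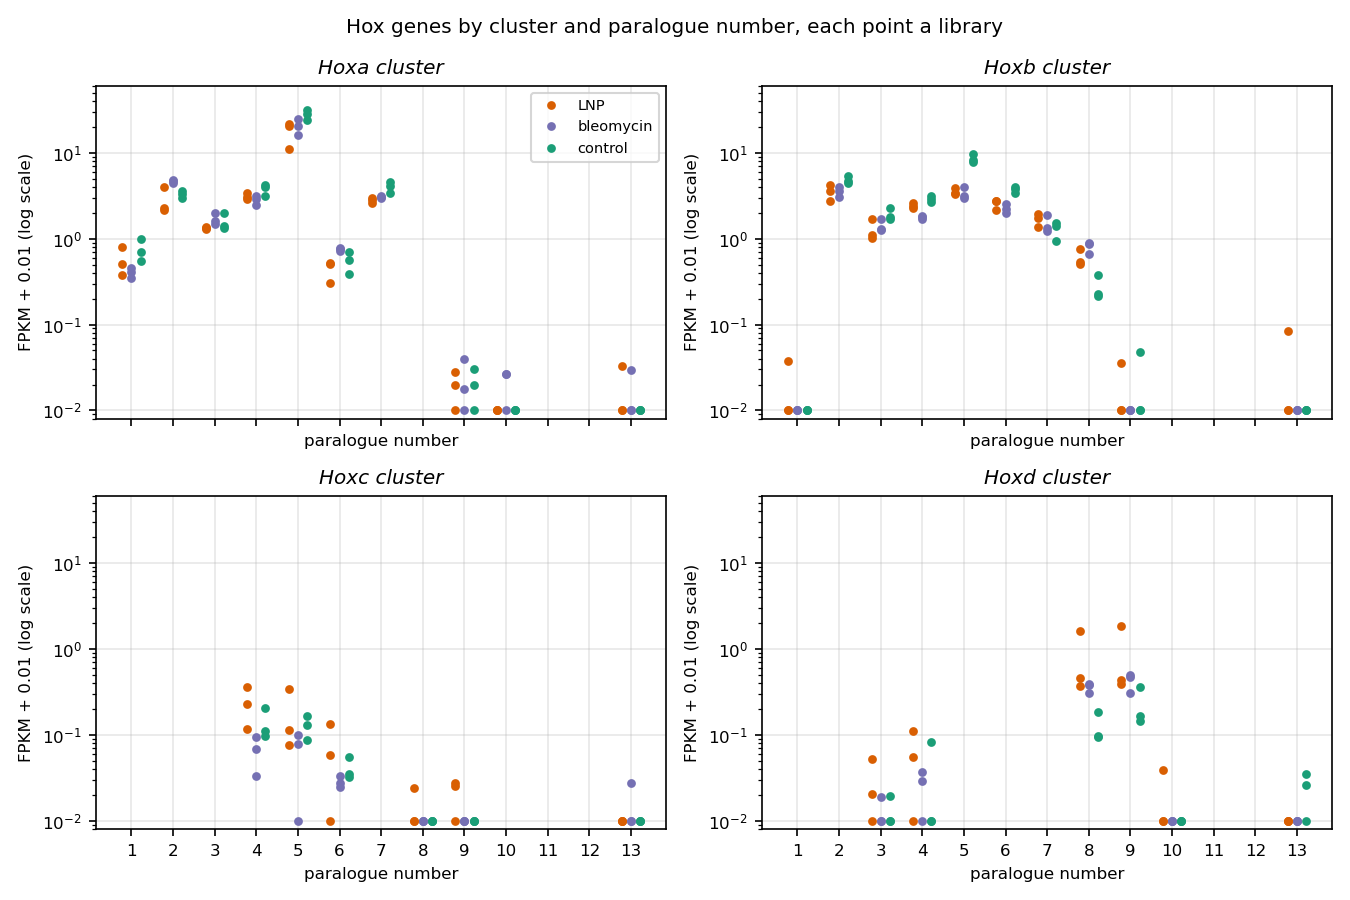
Level of each Hox gene in every library, as FPKM + 0.01 on a log axis, against its paralogue number, with a panel for each cluster and a point for each of 3 LNP, 3 bleomycin and 3 control libraries. Hoxa5 is the highest gene, Hoxa and Hoxb genes up to paralogue 8, Hoxb1 aside, are detected in every library, and the high Hoxd8 and Hoxd9 points are LNP replicate 3.

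To ask how bleomycin challenge altered these factors, bleomycin lungs were compared with control lungs. Most of the members that changed were lower: Sox2 of the airway, Sox7 and Sox18 of endothelium, Gata2 and Gata3, Tbx3, Hoxb5, Foxa1 and Sox11 fell by more than 1 on the log2 scale. Hoxb8, Sox9 and Tbx18 were more than 2-fold higher, from low levels. Of the 78 members tested 28 fell and 6 rose (edgeR quasi-likelihood test, Benjamini-Hochberg adjusted p under 0.05 over all 20794 genes tested), which is 43.6% of them, beside 33.7% of all genes tested. By direction 35.9% of the members were lower, beside 18.5% of all genes, and 7.69% were higher, beside 15.2% of all genes. The median log2 fold change was -0.55 over the members and -0.05 over all genes tested, and the 3 bleomycin libraries lay wholly above or below the 3 control libraries in CPM for 55.5% of all genes.

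**Figure D2:**
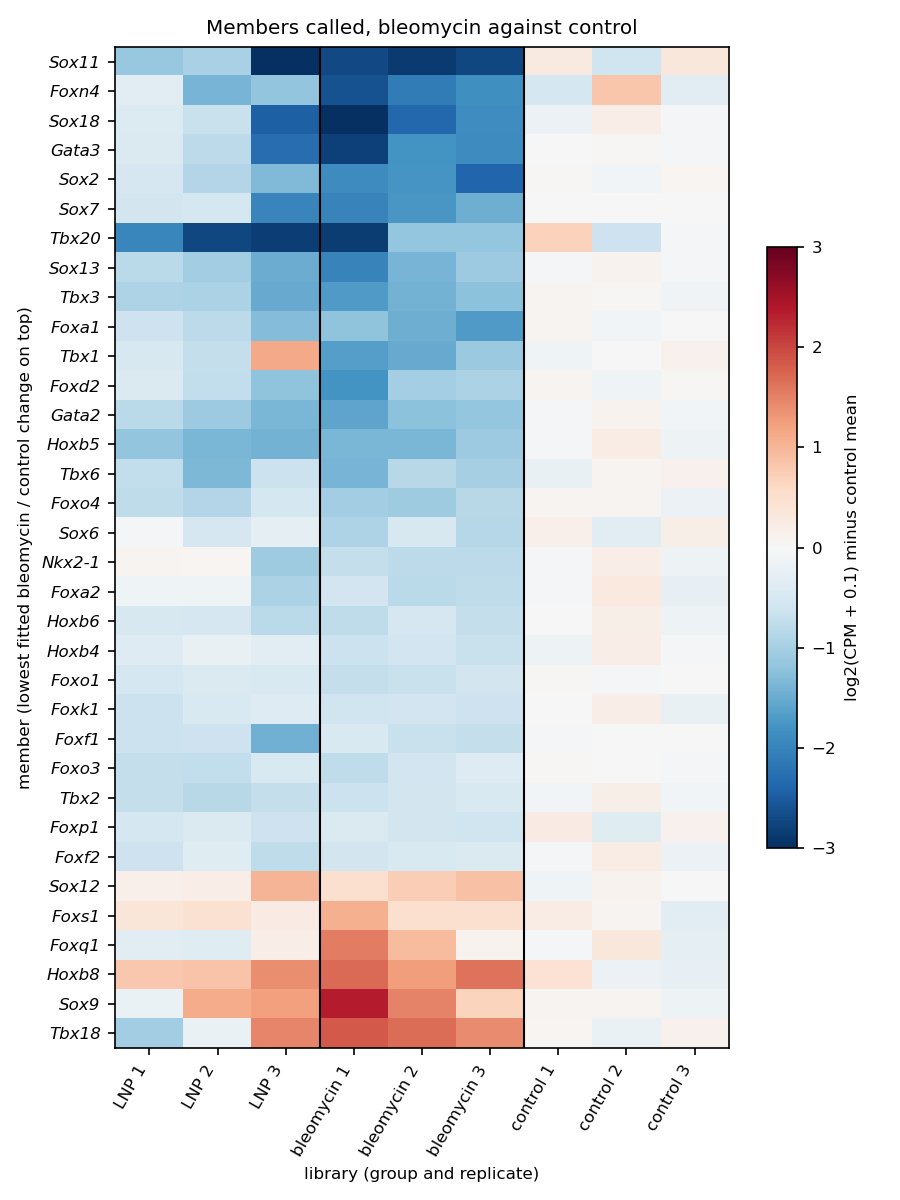
Colour gives log2(CPM + 0.1) of each of the 9 libraries minus the mean of the control libraries, for the 34 members that differed between bleomycin and control lungs, ordered from the lowest fitted change at the top. The 28 lower members are blue in the bleomycin columns and the 6 higher members at the bottom are red.

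In the Sox family 6 of 16 tested members fell and 2 rose. Sox2, at 3:34704554-34706610 in the deposited coordinates and inside the same-strand long noncoding gene Sox2ot, had 5.26, 5.76 and 3.73 CPM in bleomycin libraries, against 20.2, 18.7 and 20.5 CPM in control libraries. The groups were far apart, and Sox2 fell with a log2 fold change of -2.01 ± 0.24 (SE). Its adjusted p of 0.00048 by edgeR was the smallest among the members. The 7 ciliated cell markers all fell as well, summing to 203 to 244 CPM in bleomycin and 760 to 996 CPM in control libraries, as did all 4 club cell markers, which summed to 5840 to 6040 CPM and 23900 to 30400 CPM. Per 1000 CPM of the ciliated list Sox2 stood at 21.6, 26.1 and 18.4 CPM in bleomycin libraries and 26.6, 18.8 and 25.6 CPM in control libraries, where the groups overlapped. They also overlapped per 1000 CPM of the club list, with 0.618 to 0.986 CPM in bleomycin and 0.615 to 0.845 CPM in control libraries. In whole tissue, fewer cells of a type and less message per cell cannot be told apart.

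Sox18, Sox7 and Sox17 form the SoxF group, which acts in vessel formation. Sox18 had 31.3, 54.3 and 76.2 CPM in bleomycin libraries, against 246, 317 and 270 CPM in control libraries. The bleomycin libraries spread more than 2-fold but all lay far below control, with a log2 fold change of -2.36 ± 0.48 (edgeR adjusted p = 0.0052). Sox7 had 25.7, 30.7 and 37.3 CPM in bleomycin libraries, against 103, 105 and 103 CPM in control libraries, and fell by 1.73 ± 0.33 on the log2 scale (edgeR adjusted p = 0.0036). Sox17 differed in pattern, with 36.0, 60.0 and 79.0 CPM in bleomycin libraries and 56.2, 67.6 and 64.5 CPM in control libraries. Its groups overlapped and it did not pass the test (log2 fold change -0.11 ± 0.24, edgeR adjusted p = 0.76), with the sign reversed to 0.15 without bleomycin replicate 1. In all 3 SoxF genes bleomycin replicate 1 was the lowest and replicate 3 the highest of the bleomycin libraries.

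The endothelial markers moved with these genes. Of 10 endothelial markers 9 fell, and the list summed to 2730 to 3250 CPM in bleomycin libraries and 5400 to 6430 CPM in control libraries. Per 1000 CPM of that list Sox18 stood at 9.63, 18.7 and 27.9 CPM in bleomycin libraries, below 45.6, 49.3 and 48.1 CPM in control libraries. Sox7 stood at 7.91, 10.5 and 13.7 CPM in bleomycin and 16.3 to 19.1 CPM in control libraries per 1000 CPM of the list. Sox17, by the same ratio, stood at 11.1, 20.6 and 28.9 CPM in bleomycin and 10.4 to 11.5 CPM in control libraries. Sox18 and Sox7 were thus lower in bleomycin libraries relative to these markers too, whereas for Sox17 the groups overlapped.

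Sox11, a SoxC factor of progenitors, had 2.75, 2.44 and 2.68 CPM in bleomycin libraries, against 22.1, 12.1 and 23.3 CPM in control libraries, with a log2 fold change of -2.87 ± 0.61 (edgeR adjusted p = 0.0065). Sox4, its relative, had 46.2, 50.9 and 50.8 CPM in bleomycin and 47.6, 41.1 and 44.6 CPM in control libraries, and the groups overlapped (log2 fold change 0.15 ± 0.13, edgeR adjusted p = 0.40). Sox13, a SoxD factor, had 39.1, 59.5 and 73.6 CPM in bleomycin libraries, against 153, 170 and 151 CPM in control libraries, and fell by 1.46 ± 0.24 on the log2 scale (edgeR adjusted p = 0.0017). Its relative Sox6 fell too, with 2.85 to 3.86 CPM in bleomycin and 4.34 to 6.22 CPM in control libraries (edgeR adjusted p = 0.034). Sox9, a factor of the distal epithelium and cartilage, rose, with 5.59, 3.01 and 1.66 CPM in bleomycin libraries and 1.08, 1.07 and 0.901 CPM in control libraries (log2 fold change 1.75 ± 0.50, edgeR adjusted p = 0.025). All 3 bleomycin libraries lay above control, over a more than 3-fold range. Sox12, another SoxC gene, rose with 17.0 to 22.4 CPM in bleomycin libraries, against 11.2 to 13.1 CPM in control libraries (edgeR adjusted p = 0.046).

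Of the Gata family 2 of 6 members fell and none rose. Gata2 had 74.3, 94.3 and 98.7 CPM in bleomycin libraries, against 216, 240 and 211 CPM in control libraries. The groups did not overlap and the fall was 1.32 ± 0.17 on the log2 scale (edgeR adjusted p = 0.00062). Gata3, a factor of T cells and type 2 lymphocytes, had 1.28, 2.67 and 2.48 CPM in bleomycin libraries, against 9.61, 9.67 and 9.15 CPM in control libraries (log2 fold change -2.14 ± 0.45, edgeR adjusted p = 0.0061). All 5 T cell markers fell with it, summing to 12.2 to 13.3 CPM in bleomycin and 44.9 to 53.1 CPM in control libraries. The type 2 lymphocyte list held Il1rl1, Il5 and Areg, since Il13 had no entry among the genes. It went the other way, summing to 80.2, 44.7 and 16.0 CPM in bleomycin and 5.39 to 6.65 CPM in control libraries. Of its 2 tested markers 1 rose and none fell. Among markers of other Gata2-using cells, 4 of 7 tested mast cell, basophil and eosinophil markers fell, with list sums of 84.9 to 90.3 CPM in bleomycin and 204 to 212 CPM in control libraries. Gata1, the erythroid factor, had 0.262 to 0.861 CPM in bleomycin and 1.17 to 1.82 CPM in control libraries (edgeR adjusted p = 0.072). Gata5 had 8.93 to 11.2 CPM and 13.8 to 21.7 CPM in these groups (edgeR adjusted p = 0.098). Neither passed the test, although neither overlapped between the groups. Gata4 had 3.75 to 4.28 CPM in bleomycin and 2.99 to 4.34 CPM in control libraries and overlapped. Gata6, the Gata factor of lung epithelium, had 56.8, 48.9 and 46.5 CPM in bleomycin libraries and 46.2, 42.5 and 39.7 CPM in control libraries (log2 fold change 0.25 ± 0.13, edgeR adjusted p = 0.19).

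Foxa1, Foxa2 and Nkx2-1, which act together in lung epithelium, fell as well. Foxa1, a pioneer factor that opens chromatin, had 18.9, 15.8 and 13.4 CPM in bleomycin libraries, against 46.2, 41.3 and 43.1 CPM in control libraries (log2 fold change -1.44 ± 0.20, edgeR adjusted p = 0.00078). Its paralogue Foxa2 had 38.6, 32.7 and 33.9 CPM in bleomycin libraries, against 55.6, 70.5 and 48.0 CPM in control libraries (log2 fold change -0.73 ± 0.23, edgeR adjusted p = 0.035). Nkx2-1 had 120, 114 and 114 CPM in bleomycin libraries, against 190, 224 and 177 CPM in control libraries. Its groups did not overlap, and the fall of 0.77 ± 0.26 on the log2 scale passed the test at an adjusted p of 0.045 (edgeR). Of the alveolar type 2 markers 6 of 9 fell, with a median log2 fold change of -1.31 over the list and the sums given above. Per 1000 CPM of that list Nkx2-1 stood at 11.2, 11.6 and 12.6 CPM in bleomycin libraries, above 7.22, 6.79 and 7.22 CPM in control libraries. Foxa1, by the same ratio, stood at 1.49 to 1.77 CPM in bleomycin and 1.25 to 1.76 CPM in control libraries, which overlapped. The 7 alveolar type 1 markers overlapped in their sums, with 5860 to 6500 CPM in bleomycin and 5680 to 6590 CPM in control libraries, and 2 rose and 1 fell.

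The other Fox genes that fell include the FoxO factors, which carry insulin and stress signals to the nucleus. In the family as a whole 11 of 27 tested members fell and 2 rose. Foxo4 had 32.7, 32.2 and 38.1 CPM in bleomycin libraries, against 71.7, 71.6 and 60.1 CPM in control libraries (log2 fold change -0.98 ± 0.14, edgeR adjusted p = 0.00097). Foxo1 had 46.9 to 53.2 CPM in bleomycin and 76.2 to 79.3 CPM in control libraries (edgeR adjusted p = 0.0019). Foxo3 had 81.2 to 104 CPM and 133 to 140 CPM in these groups (edgeR adjusted p = 0.010). None of the 3 overlapped between the groups. The mesenchymal pair Foxf1 and Foxf2 fell less, Foxf1 with 177, 154 and 149 CPM in bleomycin and 240, 248 and 246 CPM in control libraries (log2 fold change -0.61 ± 0.20, edgeR adjusted p = 0.043). Foxf2 had 33.1 to 35.7 CPM in bleomycin and 43.0 to 56.2 CPM in control libraries (edgeR adjusted p = 0.030). Of the fibroblast markers 6 of 8 fell, with sums of 1200 to 1470 CPM and 3220 to 4280 CPM in these groups. Per 1000 CPM of that list Foxf1 stood at 148, 115 and 101 CPM in bleomycin libraries, above 69.8, 57.9 and 76.4 CPM in control libraries. Per 1000 CPM of the endothelial list it stood at 52.9 to 54.6 CPM in bleomycin libraries, above 38.6 to 44.4 CPM in control libraries. Foxk1, Foxp1, Foxd2 and Foxn4 fell as well, with log2 fold changes of -0.61, -0.55, -1.33 and -2.79, Foxn4 at no more than 0.242 CPM in any bleomycin library. Of the Foxp factors of lung epithelium, Foxp2 had 2.51 to 3.29 CPM in bleomycin and 2.16 to 7.71 CPM in control libraries and Foxp4 had 92.5 to 97.7 CPM and 65.7 to 95.0 CPM, and both overlapped (edgeR adjusted p = 0.18 and 0.23). Foxq1 and Foxs1 rose at adjusted p-values of 0.048 and 0.042 (edgeR). Foxq1 had 51.8, 34.4 and 19.1 CPM in bleomycin libraries, against 17.1, 22.4 and 14.4 CPM in control libraries, so bleomycin replicate 3 lay within the control range. Foxs1, a pericyte factor, had 7.51 to 11.3 CPM in bleomycin libraries and 4.29 to 6.28 CPM in control libraries.

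The T-box genes divided between falls and little movement. Of 9 tested members 5 fell and 1 rose. Tbx3 had 42.1, 50.6 and 58.0 CPM in bleomycin libraries, against 143, 140 and 126 CPM in control libraries (log2 fold change -1.44 ± 0.18, edgeR adjusted p = 0.00057). Tbx2, which neighbours Tbx4 on the chromosome as Tbx3 neighbours Tbx5, had 222, 236 and 250 CPM in bleomycin libraries, against 323, 388 and 326 CPM in control libraries (log2 fold change -0.55 ± 0.12, edgeR adjusted p = 0.0084). Both genes lay lower in every bleomycin library than in any control library. Their neighbours Tbx4 and Tbx5, mesenchymal activators, did not pass. Tbx4 had 71.0, 81.1 and 87.8 CPM in bleomycin and 99.0, 97.3 and 79.4 CPM in control libraries (log2 fold change -0.20 ± 0.20, edgeR adjusted p = 0.48). Tbx5 had 48.3, 52.6 and 55.2 CPM in bleomycin and 44.1, 53.1 and 42.6 CPM in control libraries (log2 fold change 0.16 ± 0.23, edgeR adjusted p = 0.62), and the groups overlapped for both. Per 1000 CPM of the fibroblast list Tbx2, Tbx4 and Tbx5 stood at 170 to 185, 59.2 to 60.5 and 37.6 to 40.2 CPM in bleomycin libraries. All lay above the control libraries, at 90.7 to 101, 22.7 to 28.8 and 12.4 to 13.2 CPM. Tbx1 had 7.45, 8.23 and 10.8 CPM in bleomycin libraries, against 21.3, 23.8 and 25.5 CPM in control libraries (log2 fold change -1.42 ± 0.43, edgeR adjusted p = 0.030). Tbx6 fell with 0.492 to 0.776 CPM in bleomycin and 1.24 to 1.60 CPM in control libraries (edgeR adjusted p = 0.033). Tbx20, a factor of heart muscle, had 0.328, 1.27 and 1.27 CPM in bleomycin libraries, against 4.83, 1.89 and 2.82 CPM in control libraries (log2 fold change -1.73 ± 0.56, edgeR adjusted p = 0.040). With it 6 of 7 cardiac muscle markers fell, with list sums of 98.7 to 365 CPM in bleomycin and 800 to 1120 CPM in control libraries. Tbx18, of mural and mesothelial cells, rose, with 2.47, 2.20 and 1.81 CPM in bleomycin libraries and 0.653, 0.530 and 0.686 CPM in control libraries (log2 fold change 1.79 ± 0.62, edgeR adjusted p = 0.049).

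Within the Hox genes the changes that passed were in the Hoxb cluster, where 3 of 7 tested members fell and 1 rose. Of 7 Hoxa, 2 Hoxc and 3 Hoxd members none passed. Hoxa2 and Hoxd8 had log2 fold changes of 0.57 and 1.67 with all libraries (edgeR adjusted p = 0.11 and 0.055). Without LNP replicate 3 both passed as higher, with 0.61 and 1.7 (edgeR adjusted p = 0.011 and 0.0058). Hoxb5 had 9.93, 9.98 and 12.2 CPM in bleomycin libraries, against 24.7, 30.4 and 23.1 CPM in control libraries (log2 fold change -1.29 ± 0.17, edgeR adjusted p = 0.00061). Its neighbours Hoxb4 and Hoxb6 fell less, with 5.06 to 5.37 CPM and 4.62 to 5.62 CPM in bleomycin libraries, against 7.28 to 9.28 CPM and 7.12 to 9.01 CPM in control libraries (edgeR adjusted p = 0.020 and 0.026). Hoxb8 went the other way, with 2.69, 1.94 and 2.54 CPM in bleomycin libraries and 1.06, 0.651 and 0.615 CPM in control libraries (log2 fold change 1.62 ± 0.34, edgeR adjusted p = 0.0060). No bleomycin library of these 4 genes lay within the control range. Hoxa5 had 55.9, 43.4 and 32.7 CPM in bleomycin and 48.5, 61.1 and 61.9 CPM in control libraries and overlapped (log2 fold change -0.38 ± 0.26, edgeR adjusted p = 0.30), and Hoxa4 overlapped as well (edgeR adjusted p = 0.25). Summed over each cluster, the Hoxa genes held 82.2 ± 15.4 CPM in bleomycin and 95.3 ± 10.6 CPM in control libraries and the Hoxb genes 46.7 ± 1.43 CPM and 72.4 ± 7.74 CPM (SD, n = 3).

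**Figure D3:**
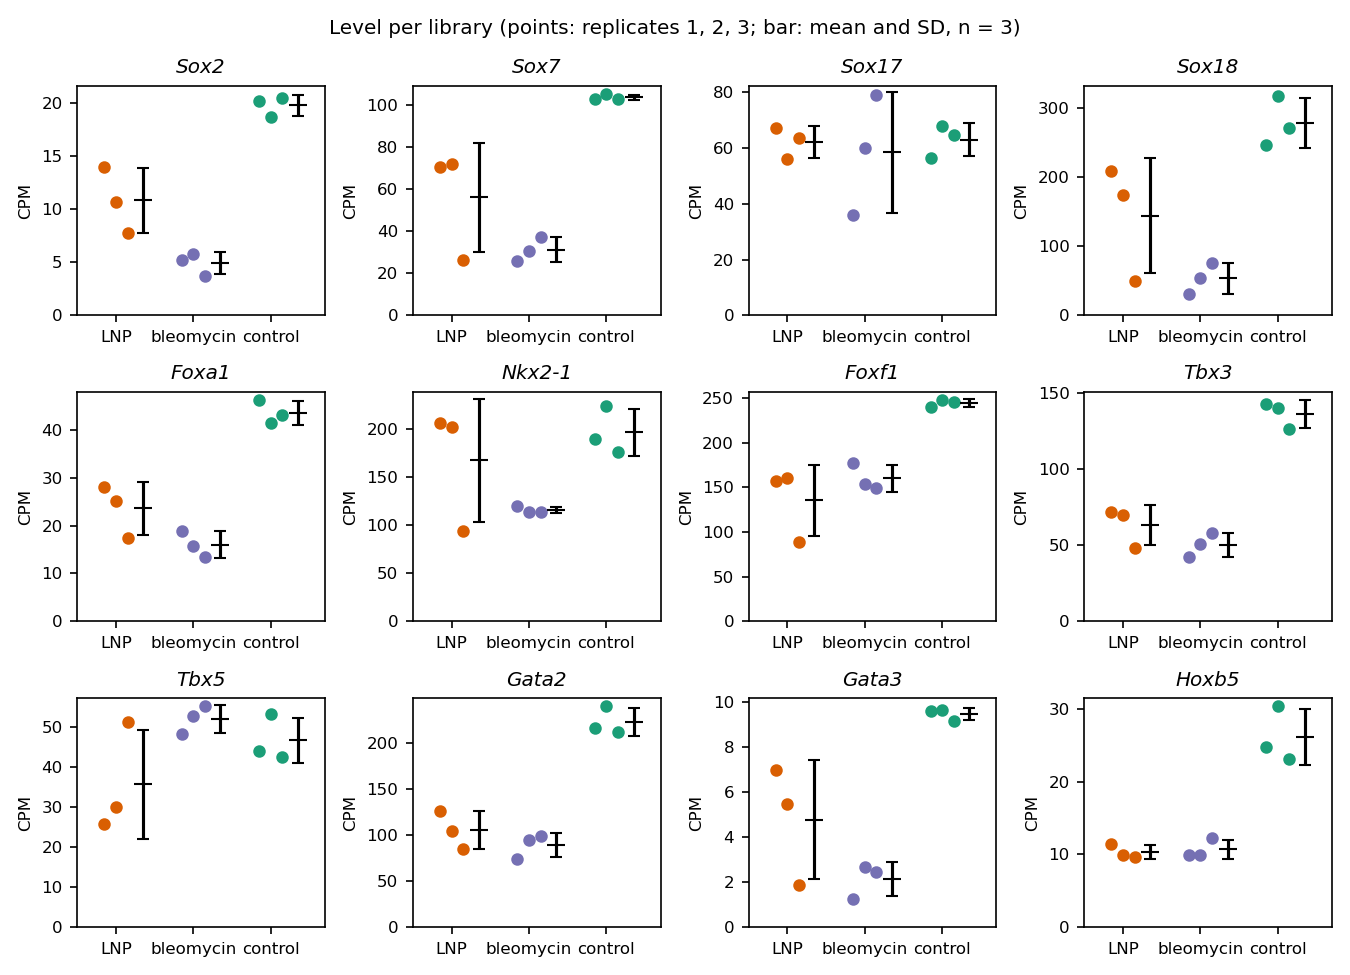
Level in CPM of 12 members in each library, LNP, bleomycin and control from left to right, with points for replicates 1 to 3 and a bar for mean and SD (n = 3). Sox2, Foxa1, Tbx3, Gata2 and Hoxb5 lie lower in all bleomycin libraries than in control libraries, Sox17 and Tbx5 overlap, and LNP replicate 3 is apart from LNP replicates 1 and 2 in Sox7, Sox18, Nkx2-1 and Foxf1.

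Of the 34 members that differed, 17 passed the test with each of the 9 libraries left out in turn. They were Sox2, Sox7, Sox11, Sox13, Sox18, Gata2, Gata3, Foxa1, Foxk1, Foxn4, Foxo1, Foxo3, Foxo4, Tbx2, Tbx3, Hoxb5 and Hoxb8. Nkx2-1, Foxf1, Sox12 and Tbx6 passed in 3 of the 9 fits, Tbx18 and Foxq1 in 2, and Foxs1 in 1. The count of members that fell was 17 without control replicate 1, 16 without bleomycin replicate 1 and 17 without bleomycin replicate 2, and the count that rose was 1 without any single control library or without bleomycin replicate 1 or 2, 3 without bleomycin replicate 3, and 9 without LNP replicate 3. All libraries share the filter, the scaling and the estimate of spread, and the cause of this shift was not tested. With LNP replicate 3 left out, 9 members rose and 31 fell, beside 20.5% and 22.1% of all 21373 genes tested then, 42.6% in all.

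To ask how the particle treatment bore on these factors after bleomycin, LNP lungs were compared with bleomycin lungs. Sox2 alone passed the test across all 3 LNP libraries. LNP replicates 1 and 2 also held more Sox7, Sox18, Sox11, Gata3, Nkx2-1 and Foxa1 message than any bleomycin library, and replicate 3 did not. The test called 1.28% of the 78 members, all higher, beside 6.16% of all genes tested, 4.28% higher and 1.87% lower, and the groups did not overlap in CPM for 29.9% of all genes. An unadjusted p under 0.05 was found for 22 members, 28.2% of them, beside 25.1% of all genes tested. DESeq2 called 4 members higher and 4 lower. The median log2 fold change was 0.08 over the members and 0.04 over all genes tested. Without LNP replicate 3 edgeR called 11 members higher and 10 lower, 26.9% of the 78 beside 24.7% of all genes (14.0% higher and 10.7% lower), so that the members' share was near that of all genes. Both comparisons use the same bleomycin libraries as the comparison with control, so values for the same gene are given side by side and no overlap between them is counted.

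Sox2 had 14.0, 10.7 and 7.81 CPM in LNP libraries, against 5.26, 5.76 and 3.73 CPM in bleomycin libraries. Every LNP library lay above every bleomycin library, and Sox2 rose by 1.14 ± 0.24 on the log2 scale (edgeR adjusted p = 0.026). The call did not hold in 7 of the 9 fits that left out 1 library, in which the adjusted p of edgeR's test was 0.052 to 0.094 without control replicate 1 or 3, any bleomycin library, or LNP replicate 1 or 2. It held at 0.0015 without LNP replicate 3 and 0.037 without control replicate 2. The log2 fold change was 0.92 to 1.33 over those 9 fits. A fit of only the LNP and bleomycin libraries gave an adjusted p of 0.078 in edgeR's test. Of 7 ciliated markers 5 rose, with sums of 307 to 557 CPM in LNP and 203 to 244 CPM in bleomycin libraries. Per 1000 CPM of that list Sox2 stood at 22.7 to 25.4 CPM in LNP and 18.4 to 26.1 CPM in bleomycin libraries, which overlapped. Per 1000 CPM of the club list it stood at 1.18, 1.57 and 1.38 CPM in LNP libraries, all above 0.898, 0.986 and 0.618 CPM in bleomycin libraries.

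For the other 20 members called without LNP replicate 3, the call was absent with all 3 LNP libraries. Sox7 had 70.6, 71.7 and 26.3 CPM in LNP libraries, against 25.7, 30.7 and 37.3 CPM in bleomycin libraries. Sox18 had 208, 174 and 50.3 CPM in LNP libraries, against 31.3, 54.3 and 76.2 CPM in bleomycin libraries. In both genes LNP replicates 1 and 2 were above the highest bleomycin library and replicate 3 lay within the bleomycin range. With all libraries the log2 fold changes were 0.85 ± 0.32 for Sox7 and 1.42 ± 0.47 for Sox18 (edgeR adjusted p = 0.13 and 0.099). Without LNP replicate 3 they were 1.19 and 1.83 (edgeR adjusted p = 0.00054 and 0.0019). The endothelial markers summed to 4320, 3900 and 1940 CPM in LNP libraries and 2730 to 3250 CPM in bleomycin libraries. LNP replicate 3 thus lay below every bleomycin library in this sum. Without that library 9 of 10 markers rose, against 0 of 10 with it. Per 1000 CPM of that list Sox18 stood at 48.1, 44.6 and 25.9 CPM in LNP and 9.63 to 27.9 CPM in bleomycin libraries. By this ratio Sox7 stood at 16.3, 18.4 and 13.6 CPM against 7.91 to 13.7 CPM, and Sox17 at 15.5, 14.3 and 32.8 CPM against 11.1 to 28.9 CPM. Sox17 had 67.0, 55.9 and 63.6 CPM in LNP libraries and 36.0, 60.0 and 79.0 CPM in bleomycin libraries and overlapped in both fits.

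Among the epithelial factors Nkx2-1 had 207, 203 and 94.1 CPM in LNP libraries, against 120, 114 and 114 CPM in bleomycin libraries. Replicates 1 and 2 were in the control range of 177 to 224 CPM, while replicate 3 was below every bleomycin library. The log2 fold change was 0.54 ± 0.26 with all libraries (edgeR adjusted p = 0.23) and 0.83 without LNP replicate 3 (edgeR adjusted p = 0.0011). Foxa1 had 28.1, 25.1 and 17.5 CPM in LNP libraries and 18.9, 15.8 and 13.4 CPM in bleomycin libraries (edgeR adjusted p = 0.12, and 0.0081 without LNP replicate 3). Foxa2 had 52.3, 52.6 and 29.4 CPM in LNP and 32.7 to 38.6 CPM in bleomycin libraries (edgeR adjusted p = 0.37, and 0.026 without LNP replicate 3). Of the 9 alveolar type 2 markers none passed with LNP replicate 3 and 8 rose without it. Per 1000 CPM of that list Nkx2-1 stood at 8.96, 10.6 and 11.9 CPM in LNP libraries and 11.2 to 12.6 CPM in bleomycin libraries. By this ratio LNP replicates 1 and 2 lay below every bleomycin library. Foxa1 stood at 1.22, 1.31 and 2.22 CPM in LNP and 1.49 to 1.77 CPM in bleomycin libraries by the same ratio. Sox11 and Gata3 showed the same division, Sox11 with 8.38, 9.38 and 1.20 CPM and Gata3 with 7.01, 5.47 and 1.88 CPM in LNP libraries, against 2.44 to 2.75 CPM and 1.28 to 2.67 CPM in bleomycin libraries. Their log2 fold changes were 1.27 and 1.16 with all libraries (edgeR adjusted p = 0.21 and 0.14), and 1.76 and 1.54 without LNP replicate 3 (edgeR adjusted p = 0.0012 and 0.0043). All 5 T cell markers rose in both fits, to 51.4 to 61.9 CPM in LNP libraries against 12.2 to 13.3 CPM in bleomycin libraries. Per 1000 CPM of that list Gata3 stood at 135, 88.4 and 36.6 CPM in LNP and 105 to 201 CPM in bleomycin libraries, which overlapped. The type 2 lymphocyte list overlapped, with sums of 17.6 to 33.6 CPM in LNP and 16.0 to 80.2 CPM in bleomycin libraries.

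Tbx4 and Tbx5, neither of which passed with all libraries, lay lower in LNP replicates 1 and 2. Tbx4 had 44.9, 49.6 and 77.4 CPM in LNP libraries and 71.0, 81.1 and 87.8 CPM in bleomycin libraries. Tbx5 had 25.9, 30.0 and 51.1 CPM in LNP libraries and 48.3, 52.6 and 55.2 CPM in bleomycin libraries. In both genes these LNP libraries lay below every bleomycin and every control library, and replicate 3 lay within the bleomycin range. The log2 fold changes were -0.48 ± 0.20 and -0.55 ± 0.23 with all libraries (edgeR adjusted p = 0.18 for both), and without LNP replicate 3 Tbx4 fell by 0.75 and Tbx5 by 0.89 (edgeR adjusted p = 0.0049 and 0.0021). Tbx18 had 0.250, 0.524 and 1.88 CPM in LNP libraries, against 1.81 to 2.47 CPM in bleomycin libraries, with a log2 fold change of -1.29 with all libraries (edgeR adjusted p = 0.22) and -2.48 without LNP replicate 3 (edgeR adjusted p = 0.0024). Tbx2 had 211, 192 and 210 CPM in LNP libraries, against 222, 236 and 250 CPM in bleomycin libraries, which did not overlap and did not pass (edgeR adjusted p = 0.33). Tbx3 had 72.0, 70.1 and 47.9 CPM in LNP and 42.1 to 58.0 CPM in bleomycin libraries (edgeR adjusted p = 0.28, and 0.028 without LNP replicate 3). Gata6 had 34.3, 40.4 and 33.0 CPM in LNP libraries, against 56.8, 48.9 and 46.5 CPM in bleomycin libraries. All LNP libraries of Gata6 were lower than any bleomycin library (log2 fold change -0.50 ± 0.14), with an adjusted p of 0.058 in edgeR's test. Without LNP replicate 3 its log2 fold change was -0.44 (edgeR adjusted p = 0.045). Gata2 had 126, 104 and 85.1 CPM in LNP and 74.3 to 98.7 CPM in bleomycin libraries (edgeR adjusted p = 0.43), and Hoxb5 had 9.70 to 11.4 CPM and 9.93 to 12.2 CPM (edgeR adjusted p = 0.90). Both overlapped, and both stayed below every control library in each group. Hoxa2 had 3.97, 4.16 and 7.60 CPM in LNP libraries, against 9.93, 8.85 and 9.34 CPM in bleomycin libraries (log2 fold change -0.84, edgeR adjusted p = 0.086, and -1.20 with an edgeR adjusted p of 0.0014 without LNP replicate 3). Foxq1 had 14.0, 13.7 and 20.3 CPM in LNP libraries, against 51.8, 34.4 and 19.1 CPM in bleomycin libraries (log2 fold change -1.13, edgeR adjusted p = 0.075, and -1.33 with an edgeR adjusted p of 0.022 without LNP replicate 3). Hoxa2 did not overlap between the groups, and Foxq1 overlapped through LNP replicate 3. Sox9 had 0.875, 2.31 and 2.53 CPM in LNP libraries, which overlapped the bleomycin range of 1.66 to 5.59 CPM (edgeR adjusted p = 0.32), and Sox4 had 51.9, 65.9 and 56.3 CPM, above 46.2 to 50.9 CPM in bleomycin libraries (edgeR adjusted p = 0.29).

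**Figure D4:**
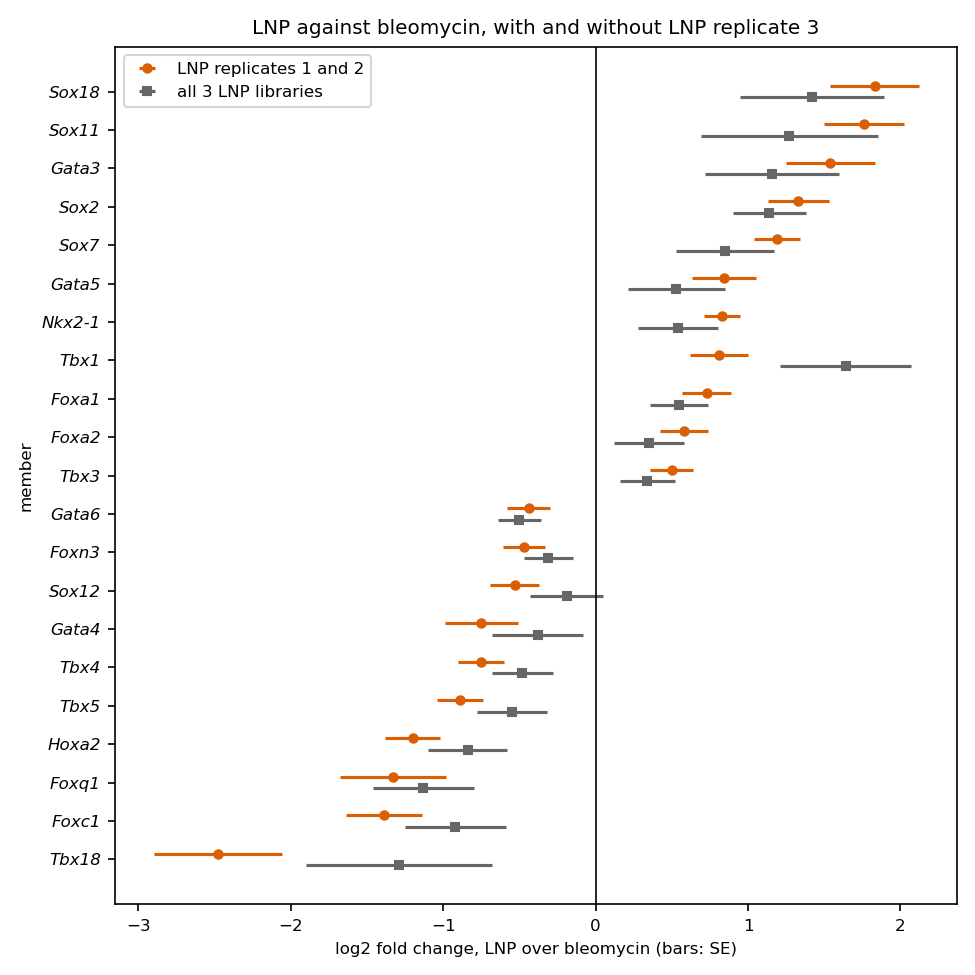
Log2 fold change of LNP over bleomycin with its SE for the 21 members called when LNP replicate 3 is left out, from that fit (circles) and from the fit with all 3 LNP libraries (squares). The sign is the same in both fits for all 21, Tbx1 is the member with the larger value when LNP replicate 3 is counted among those above 0, and Sox2 is the one also called with all libraries.

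To ask what remained different after treatment, LNP lungs were compared with control lungs. Hoxb5, Gata2, Tbx2, Tbx3 and 3 FoxO genes, all lower in bleomycin than in control lungs, were lower in LNP than in control lungs too. The same control libraries enter both comparisons, so these calls are not independent of each other. Of the 78 members 12 fell and 1 rose, 16.7% beside 8.04% of all genes tested. By direction 15.4% fell, beside 3.08% of all genes, and 1.28% rose, beside 4.95%. The median log2 fold change was -0.37 over the members and 0.00 over all genes, and the groups did not overlap in CPM for 28.8% of all genes. Without LNP replicate 3, 19 fell and 1 rose, beside 10.9% of all genes (4.51% lower and 6.41% higher).

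Hoxb5 had 11.4, 9.92 and 9.70 CPM in LNP libraries, against 24.7, 30.4 and 23.1 CPM in control libraries (log2 fold change -1.33 ± 0.17, edgeR adjusted p = 0.0023). Gata2 fell by 1.09 ± 0.17, Tbx3 by 1.10 ± 0.18 and Tbx2 by 0.76 ± 0.12 on the log2 scale (edgeR adjusted p = 0.0053, 0.0065 and 0.0065). These 4 genes did not overlap between the groups, and they were the 4 of the 13 that passed with each library left out in turn. Hoxb5 and Tbx3 share their place with annotated genes on the opposite strand, and Gata2 and Tbx2 with none. Whether counting used the strand is not known, so values of Hoxb5 and Tbx3 carry that limit. Foxo4, Foxo3 and Foxo1 fell with log2 fold changes of -0.72, -0.63 and -0.47, with LNP libraries at 36.9 to 46.7 CPM, 81.8 to 98.8 CPM and 54.2 to 57.9 CPM. Foxf1 had 157, 160 and 89.4 CPM in LNP libraries, against 240, 248 and 246 CPM in control libraries (log2 fold change -0.85 ± 0.20, edgeR adjusted p = 0.033). Foxf2, Foxa1 and Sox13 fell as well, with log2 fold changes of -0.59, -0.89 and -1.10 (edgeR adjusted p = 0.040, 0.023 and 0.020). Foxf2 no longer passed without LNP replicate 3 (edgeR adjusted p = 0.079).

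Tbx20 had 0.694, 0.36 and 0.331 CPM in LNP libraries, against 4.83, 1.89 and 2.82 CPM in control libraries (log2 fold change -2.77 ± 0.59, edgeR adjusted p = 0.020). With it 5 of 7 cardiac markers fell, with list sums of 190 to 335 CPM in LNP and 800 to 1120 CPM in control libraries. Hoxd8, a middle Hoxd gene, rose, with 1.30, 1.03 and 4.70 CPM in LNP libraries and 0.245, 0.272 and 0.515 CPM in control libraries (log2 fold change 2.76 ± 0.61, edgeR adjusted p = 0.023). LNP replicate 3 was the highest library, yet the other LNP libraries also lay above control, and without it the log2 fold change was 1.79 (edgeR adjusted p = 0.022). Hoxd8 also lay above control in every bleomycin library, with a bleomycin mean of 1.1 CPM. Between LNP and bleomycin lungs its log2 fold change was 1.09 with all libraries and 0.09 without LNP replicate 3 (edgeR adjusted p = 0.27 and 0.90). Sox2 at 7.81 to 14.0 CPM in LNP and 18.7 to 20.5 CPM in control libraries missed the threshold at an adjusted p of 0.052 (edgeR). Nkx2-1 overlapped between LNP and control libraries, with a log2 fold change of -0.23 ± 0.26 that became 0.10 without LNP replicate 3 (edgeR adjusted p = 0.65 and 0.69). Calls that held in fewer than 9 fits with 1 library left out were those of Foxo4 in 7, of Foxa1, Hoxd8 and Tbx20 in 6, of Foxo3 and Sox13 in 5, of Foxf1 and Foxo1 in 4 and of Foxf2 in 1.

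LNP replicate 3 also held members that other libraries hardly had. Tbx15, a factor of limb and axial skeletal muscle and skin, stood at 24.4 CPM in that library, against 0.0655 to 0.441 CPM in the other 8. Sox15 stood at 1.52 CPM against at most 0.261 CPM, and Foxe1, a factor of thyroid and oral epithelium, at 0.854 CPM against at most 0.0655 CPM. Foxl2 had 18 counts and Hoxb13 10 counts there and none in any other library. These 5 of the 105 members (4.76%) had at least 10 counts in LNP replicate 3 and over 5 times the level of every other library, beside 359 of the 32671 genes in the table (1.10%). Of these 5 Tbx15 and Sox15 had enough counts to be tested. Tbx1 stood at 51.5 CPM in LNP replicate 3, against 16.7 and 14.2 CPM in the other LNP libraries and 21.3 to 25.5 CPM in control libraries. Its comparison of LNP with bleomycin therefore gave a log2 fold change of 1.64 with all libraries (edgeR adjusted p = 0.054) and 0.81 without LNP replicate 3 (edgeR adjusted p = 0.011). The skeletal muscle and squamous markers given above moved with these members, and their part in them was not tested.

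**Figure D5:**
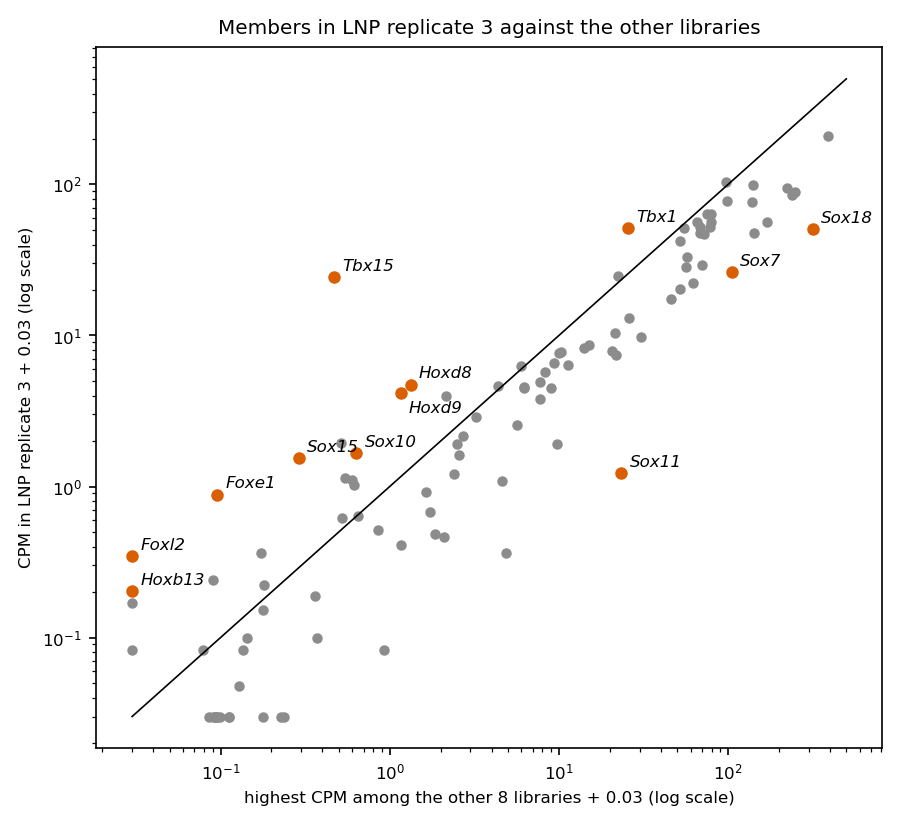
Level of each of the 105 members in LNP replicate 3 against the highest of the other 8 libraries, both as CPM + 0.03 on log axes, with the line of equality. Tbx15, Foxl2, Foxe1, Sox15 and Hoxb13 lie far above the line, and Sox7, Sox11 and Sox18 lie below it.

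Partners of these families were examined through 4 further lists. Of the 9 TALE homeodomain genes, whose products bind DNA together with Hox proteins, 4 fell and 2 rose in bleomycin against control lungs. Meis1 had 10.9, 18.3 and 22.6 CPM in bleomycin libraries, against 46.5, 45.4 and 48.4 CPM in control libraries (log2 fold change -1.43 ± 0.29, edgeR adjusted p = 0.0047). Pknox2 fell by 1.12 ± 0.16 in bleomycin lungs and by 1.00 ± 0.16 in LNP lungs relative to control (edgeR adjusted p = 0.00084 and 0.0052). Pbx4 rose in bleomycin lungs, with 15.5, 9.40 and 10.7 CPM against 1.62, 2.39 and 1.70 CPM in control libraries (edgeR adjusted p = 0.0085), and Meis3 rose too (edgeR adjusted p = 0.0050). Of 15 Polycomb and trithorax genes, which keep Hox genes silent or active, 8 fell and 1 rose. Ezh1, a histone methyltransferase, had 68.7, 66.7 and 75.0 CPM in LNP libraries, 39.6, 45.6 and 51.7 CPM in bleomycin libraries and 98.0, 116 and 88.5 CPM in control libraries. It fell in bleomycin against control lungs and was higher in LNP than in bleomycin lungs (log2 fold changes -1.14 ± 0.15 and 0.62 ± 0.15, edgeR adjusted p = 0.00059 and 0.038). Cbx7, a reader of that mark, fell by 1.46 ± 0.20 in bleomycin against control lungs (edgeR adjusted p = 0.00080).

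Of 9 partners of Gata and T-box factors 1 fell and 1 rose in bleomycin against control lungs. Lmo2, which bridges Gata proteins to other factors, had 68.4, 61.6 and 40.9 CPM in LNP libraries, 24.5, 24.7 and 25.8 CPM in bleomycin libraries and 64.1, 79.5 and 78.4 CPM in control libraries. Every LNP library lay above every bleomycin library (log2 fold change 1.19 ± 0.19, edgeR adjusted p = 0.011), and bleomycin lay below control (log2 fold change -1.57 ± 0.19, edgeR adjusted p = 0.00046). Tle1, a corepressor, was lower in LNP than in bleomycin lungs (log2 fold change -0.67 ± 0.13, edgeR adjusted p = 0.023). Of 34 tested further lung developmental factors 15 fell and 5 rose in bleomycin against control lungs. Grhl2, an epithelial factor, had 15.8 to 18.6 CPM in LNP, 10.4 to 11.3 CPM in bleomycin and 21.7 to 24.6 CPM in control libraries. It passed in LNP against bleomycin and in bleomycin against control lungs (edgeR adjusted p = 0.028 and 0.00055). Prrx1, a fibroblast factor, ran the other way with 13.5 to 19.8 CPM in LNP, 26.9 to 35.3 CPM in bleomycin and 7.36 to 11.3 CPM in control libraries (edgeR adjusted p = 0.032 and 0.00066 for the same comparisons). Etv4, a target of fibroblast growth factor signalling, had 4.47, 6.69 and 19.7 CPM in LNP libraries, 17.7 to 20.8 CPM in bleomycin libraries and 0.0653 to 0.572 CPM in control libraries. It rose in LNP and in bleomycin lungs relative to control (edgeR adjusted p = 0.0041 and 0.00058), and was lower in LNP than in bleomycin lungs only without LNP replicate 3 (edgeR adjusted p = 0.019).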

How the data were processed

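Poly(A) RNA of whole lung from 9 libraries in 3 groups was used; library preparation marked the strand, per the labels' protocols. Per the submitters' processing notes the tools were fastp, StringTie and edgeR. Not given in the sources used here are the aligner, the build and whether counting used the strand. Deposited values are whole-number counts for genes and for transcripts, and FPKM values for genes that the authors had scaled, per the file headers. The members, gene lists and tests were chosen with earlier results of these data known, so no list is independent evidence.

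Gene counts of all 9 libraries were fitted together with edgeR 4.0.16 in R 4.3.3 (quasi-likelihood F test, TMM scaling, filterByExpr). The 20794 genes kept were adjusted together by Benjamini-Hochberg, and a gene passed at an adjusted p under 0.05. A value after ± is SD over 3 libraries, or SE when it follows a log2 fold change. FPKM served for levels between genes and for limma 3.58.1. Cell type markers came from 22 lists and partners from 4 lists. The genes given with values in every library were those passing with the 25 smallest p-values per comparison, a list of lung factors, members over 5 times higher in LNP replicate 3 than elsewhere, and up to 4 passing partners per list. Sox6, Foxs1, Sox12, Foxq1, Tbx18 and Hoxa2 lie outside that rule and were named after their values were seen. So were Tbx20 in bleomycin against control, Tbx1 in LNP against bleomycin and Hoxd8 in both of these comparisons. The same holds for some partners and the ratios to marker sums. Libraries of 1 group differed by more than sampling noise, since every such pair gave a chi-square of 30.2 or more for each degree of freedom.

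Alternatives were RLE and library size scaling, DESeq2 1.42.0, no count filter, a fit of only the 2 groups, a replicate block, limma on log2(FPKM + 1) and on log2(FPKM + 0.1) where a gene averaged 0.5 FPKM or more, limma with no filter, and leaving out each library. On simulated counts for 20794 genes, edgeR recovered 15%, 23% and 18% of 2-fold and 69%, 60% and 59% of 4-fold changes for bleomycin against control, LNP against bleomycin and LNP against control, with 2, 5 and 3 false calls. In the same order DESeq2 recovered 48%, 49% and 42% of 2-fold and 82%, 73% and 73% of 4-fold changes, with 52, 46 and 47 false calls. The false calls of limma numbered 7, 4 and 7. Tables and plots were made with Python 3.11.15, pandas 2.3.3 and matplotlib 3.10.9.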

Additional observations from a re-analysis of the deposited data

How the results depend on the processing

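In bleomycin against control lungs 28 members fell, and 22 to 31 fell under the other scalings, tools, filters and units and under the replicate block, and 16 to 31 with 1 library left out. Members that rose numbered 6, against 3 with library size scaling, 2 with no count filter, 2 with limma on log2(FPKM + 1), 2 with limma on log2(FPKM + 0.1), 1 with limma and no filter, and 1 to 9 with 1 library left out. In LNP against bleomycin lungs 1 rose, against 2 with library size scaling, 4 with DESeq2, 0 in a fit of only the 2 groups and 0 to 11 with 1 library left out, and 0 fell, against 4 with DESeq2 and 0 to 10 with 1 library left out. In LNP against control lungs 1 rose, against 4 with DESeq2, 0 with only the 2 groups, 0 with limma on log2(FPKM + 1), 0 with limma and no filter, and 0 to 1 with 1 library left out, and 12 fell, against 19 with DESeq2, 7 with only the 2 groups and 4 to 19 with 1 library left out. The cause of these shifts was not tested. Library size scaling moved the median of all genes in LNP against bleomycin by 0.12 on the log2 scale.

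Same-numbered libraries of different groups correlated in their deviations at -0.0176 to 0.0400, so the numbers were not taken as pairs. With the replicate block 4 members rose and 25 fell in bleomycin against control, 1 rose and 0 fell in LNP against bleomycin, and 1 rose and 8 fell in LNP against control.

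Of the 78 members, 7 changed sign in LNP against bleomycin, 11 in LNP against control and 0 in bleomycin against control when LNP replicate 3 was left out, none of them called in either fit. Tbx15 did so in both, with log2 fold changes of 4.60 over bleomycin and 5.22 over control with all libraries, and -2.28 and -1.63 without that library. Every setting was examined for the members named in each comparison, except Hoxa2 in bleomycin against control and Hoxd8 outside LNP against control. The signs of the members examined reversed as follows. In LNP against bleomycin the log2 fold change became 0.12, 0.02, 0.13 and 0.07 for Foxp1, Foxp4, Hoxa4 and Hoxb5 with library size scaling, 0.10, 0.01, 0.09 and 0.06 with limma on log2(FPKM + 1), with or without its filter, and 0.11, 0.01, 0.12 and 0.07 with limma on log2(FPKM + 0.1), and 0.00 for Foxp1 with only the 2 groups and with the replicate block. With 1 library left out the same comparison spanned -0.05 to 0.05 for Foxp1, -0.12 to 0.12 for Hoxa4, -0.12 to 0.06 for Hoxb5, -0.17 to 0.55 for Gata1 and -0.16 to 0.38 for Sox17. In LNP against control Sox17 became 0.02 with RLE scaling and with DESeq2, 0.04 with library size scaling, 0.03 with only the 2 groups, 0.00 with the replicate block, 0.03 and 0.04 with limma at the pseudocounts of 1 and 0.1, 0.03 with limma and no filter, and -0.09 to 0.06 with 1 library left out. Foxp2 became 0.01 with the replicate block and -0.45 to 0.38 with 1 library left out, where Nkx2-1 spanned -0.41 to 0.10 and Gata5 -0.55 to 0.12, both above 0 only without LNP replicate 3. In bleomycin against control Sox17 spanned -0.39 to 0.15, above 0 only without bleomycin replicate 1. The 17 members under 10 counts in every library are beyond what this depth can compare.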

Other observations

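The isoform estimates of Foxp1, a factor of epithelium and lymphocytes, did not settle within groups. Transcript ENSMUST00000113322 took 23.7%, 88.5% and 0.00% of the gene's deposited transcript counts in LNP libraries, 54.2%, 84.8% and 50.6% in bleomycin libraries and 59.6%, 54.6% and 53.7% in control libraries. Transcript ENSMUST00000113326 took 66.5%, 0.00% and 54.5% in LNP libraries, 32.1%, 0.00% and 38.9% in bleomycin libraries and 1.32%, 0.00% and 11.9% in control libraries. The groups overlapped for both, so no isoform of Foxp1 was compared between groups.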
